A study of Rattus norvegicus with 12 samples.

Results

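Alcohol dehydrogenases and retinoid genes were described in the colon of rats that had or had not undergone neonatal maternal separation (NMS). The set holds 9 genes, namely Adh1, Adh4, Adh7, Aldh1a1, Aldh1a2, Aldh1a3, Rbp2, Crabp2 and Cyp26b1. All probes that carry one of these names on the array were taken, which gave 10 of 30367 probes, 2 of them for Adh4, and 9 of 26514 gene names. The genes were picked for how they differed between Groups C, M and D on these same arrays, so their differences between the groups are given as descriptions, with no test of their own.

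The animals were male Wistar rats of 200 to 250 g, and colonic RNA of 12 of them was measured, 1 rat per 1-colour (Cy3) Agilent array. Group C (4 rats, C1 to C4) was normally handled and received placebo, 100 µL of saline by daily gavage from day 3 to day 60. Group M (4 rats, M5 to M8) was taken from the dam for 180 min per day from postnatal day 2 to day 14 and received the same placebo. Group D (4 rats, D9 to D12) underwent the same separation and received VSL#3, a mixture of probiotic bacteria, at 18000000000 bacteria in 100 µL by daily gavage from day 3 to day 60. According to the methods, all 3 groups also underwent colorectal distension at the age of 60 days, so no array shows a colon without distension. Groups C and M shared 1 slide and Group D lay on another, so slide and group cannot be told apart in the comparisons of Group D. All arrays of Group M lay in array row 2 of their slide and those of Groups C and D in row 1, so row and group cannot be told apart in the comparisons of Group M. The methods analysed 11 arrays, and rat D12 was left out of the comparisons here in the same way, with its values given beside them.

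Retinol from the diet is oxidised in cells to retinal by alcohol and retinol dehydrogenases, and retinal is oxidised irreversibly to retinoic acid by the retinaldehyde dehydrogenases of the Aldh1a family. Retinoic acid is handed to nuclear receptors by a binding protein such as CRABP2, regulates genes there, and is cleared by hydroxylases of the CYP26 family. In the intestine this pathway is known for its part in epithelial differentiation and in the homing and tolerance of immune cells, and the same alcohol dehydrogenases also oxidise ethanol and other alcohols.

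Signal was expressed as the log2 of the intensity relative to the 75th percentile of the array, so that 0 is that percentile and each unit is a 2-fold step within a probe. Levels of different genes were not set against each other outside the marker lists. A marker sum adds different probes, so those with a high signal weigh most in it. A probe was counted as well above background on an array when at least 50% of its spots were marked so by the scanner software. All 13 colonocyte markers (among them Vil1, Cdx2, Krt20 and Slc26a3) were well above background on every array. So were 6 of 9 measured markers of stratified squamous epithelium, the lining that begins at the anus (Krt4, Krt5, Krt14, Krt15, Tp63 and Pkp1), while Krt13, Dsg3 and Dsc3 were not on any array. The summed signal of the squamous list was 6.37 to 7.12 in Group C, 6.29 to 10.2 in Group M, 6.97 to 7.46 in D9 to D11 and 6.06 in D12. This sum rests mainly on Tp63 (1.82 to 2.23) and Pkp1, since Krt4, Krt5, Krt14 and Krt15 stood at -6.26 to -3.55. Its top in Group M is M7, where Pkp1 stood at 2.71, against 1.04 to 1.70 in the other rats. In bulk tissue, fewer cells of a type and less RNA per cell cannot be told apart.

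The sequences below are those of both Adh4 probes, on which the widest difference rests, and of the probes of Adh1 and Aldh1a3, which cross an intron. All are given 5′ to 3′. The pair of Adh4 probes lies at chr2:235969121-235969180 and chr2:235967986-235968045 on the plus strand of rn4, the build named in the files. The Adh1 probe, 60 bases long, covers chr2:235810196-235810962, a span of 767 bases. The Aldh1a3 probe covers chr1:120847772-120853625 on the minus strand, a span of 5854 bases. No letters are in capitals, since no base within a probe is singled out.
Adh4, first probe: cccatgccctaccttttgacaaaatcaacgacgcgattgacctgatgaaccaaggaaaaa
Adh4, second probe: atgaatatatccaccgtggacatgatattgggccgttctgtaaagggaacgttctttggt
Adh1: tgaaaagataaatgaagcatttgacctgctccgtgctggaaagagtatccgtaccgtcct
Aldh1a3: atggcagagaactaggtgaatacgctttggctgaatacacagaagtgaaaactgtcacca

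Each of the other members had 1 probe of 60 bases on an uninterrupted stretch of rn4. These were chr2:235764840-235764899 for Adh7, chr1:223773152-223773211 for Aldh1a1, chr8:75771061-75771120 for Aldh1a2, chr8:103685686-103685745 for Rbp2, chr2:180033998-180034057 for Crabp2 and chr4:118735314-118735373 for Cyp26b1. The probes of Adh1, Adh4 and Adh7 lay within 204341 bases of chromosome 2. All 9 genes were matched to RefSeq through the transcript accession in the files, and the array's Adh1 is named Adh1c there.

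Because Adh4 and Aldh1a1 were the members called in a comparison (below), the 250 bases before their RefSeq start (build GRCr8) are shown, at chr2:229621842-229622091 and chr1:227537370-227537619, both on the plus strand. Capitals mark the retinoic acid receptor half-sites AGGTCA and AGTTCA, searched on both strands, so that TGAACT is AGTTCA on the minus strand.
Adh4: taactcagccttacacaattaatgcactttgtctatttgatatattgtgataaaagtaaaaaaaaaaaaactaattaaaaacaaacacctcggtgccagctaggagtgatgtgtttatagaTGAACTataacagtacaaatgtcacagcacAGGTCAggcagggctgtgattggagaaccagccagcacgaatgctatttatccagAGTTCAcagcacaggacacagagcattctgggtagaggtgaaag
Aldh1a1: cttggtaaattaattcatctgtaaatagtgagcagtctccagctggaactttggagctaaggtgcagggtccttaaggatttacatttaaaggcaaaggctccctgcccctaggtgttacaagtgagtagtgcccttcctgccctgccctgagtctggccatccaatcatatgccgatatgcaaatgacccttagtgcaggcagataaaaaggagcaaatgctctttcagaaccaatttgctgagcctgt

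The Adh4 window held AGGTCA once and AGTTCA 2 times, and the Aldh1a1 window neither. At least 1 of both motifs was present in 24.3% of 33469 rat promoters of the same length (AGGTCA in 14.1%, AGTTCA in 12.2%), and in 2 of the 9 members, Adh4 and Rbp2. A match of 6 letters is a description of the window and not a binding site.

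Adh4, an alcohol dehydrogenase that accepts retinol, showed the widest separation between Groups M and C among the members. With the first probe, the one with the higher signal, Group C stood at -2.52, -2.53, -2.03 and -1.91 in rats C1 to C4, and Group M at -7.53, -6.36, -5.13 and -7.38 in rats M5 to M8. Group D stood at -3.54, -2.56 and -2.96 in rats D9 to D11, and D12 at -4.81. Every rat of Group M was below every rat of Groups C and D, D12 included, and every rat of Group D was below every rat of Group C, although D10 was lower than C2 only in the second decimal.

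Group means were taken over log2 values, and folds and percentages of the Group C mean refer to these means. Expressed as a percentage of the Group C mean, Adh4 signal was 2.57% and 2.86% in M5 and M8, 5.81% in M6 and 13.6% in M7. It was 41.0%, 80.6% and 61.2% in D9 to D11, and 16.9% in D12. The difference between Groups M and C was -4.35 ± 0.48 (log2, SE, 4 against 4 rats), a 20.4-fold lower mean. That between Groups D and M was 3.58 ± 0.51 (3 against 4 rats), a 12.0-fold higher mean. Here and below, the SE is from limma, which estimates 1 spread for all 3 groups together. The SD between rats was 0.33 in Group C, 1.11 in Group M and 0.49 in D9 to D11. The difference between Groups D and C was -0.77 ± 0.51. In Group M the first probe was well above background on 2 of 4 arrays, M6 and M7, so these folds depend on signals close to background. With normexp background correction the differences were -2.32 for M against C and 1.71 for D against M.

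The second Adh4 probe gave the same order of groups. Group C stood at -2.68, -2.83, -2.39 and -2.30, Group M at -8.58, -8.75, -5.83 and -8.39, and Group D at -3.84, -2.92 and -3.40, with D12 at -5.53. All rats of Group M were again the lowest, and M7 was the only one of the 4 in which this probe was well above background. The differences were -5.34 ± 0.56 for M against C, 4.50 ± 0.61 for D against M and -0.84 ± 0.61 for D against C.

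Adh1 encodes the classical alcohol dehydrogenase of liver and gut, which oxidises ethanol and retinol. Its signal was 6.07, 5.75, 5.75 and 6.13 in C1 to C4, 5.07, 5.63, 4.23 and 5.03 in M5 to M8, and 5.89, 5.79 and 5.89 in D9 to D11, with 5.15 in D12. All 4 rats of Group M lay below Group C and below D9 to D11, but D12 lay within the range of Group M. The difference was -0.93 ± 0.25 for M against C, 0.86 ± 0.27 for D against M and -0.07 ± 0.27 for D against C.

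Adh7, the alcohol dehydrogenase of the stomach and upper digestive tract with a high activity towards retinol, took a different course. Group C stood at -2.07, -1.30, -2.54 and -1.67, Group M at -2.65, -2.27, -3.71 and -2.86, and Group D at -3.00, -2.93 and -2.55, with -3.36 in D12. Groups C and M overlapped through C3 and M6, whereas every rat of Group D was below every rat of Group C, D11 only by the second decimal below C3. The difference was -0.98 ± 0.33 for M against C, 0.05 ± 0.35 for D against M and -0.93 ± 0.35 for D against C, so the mean of Group D lay at the level of Group M and not between the other groups.

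**Figure D1:**
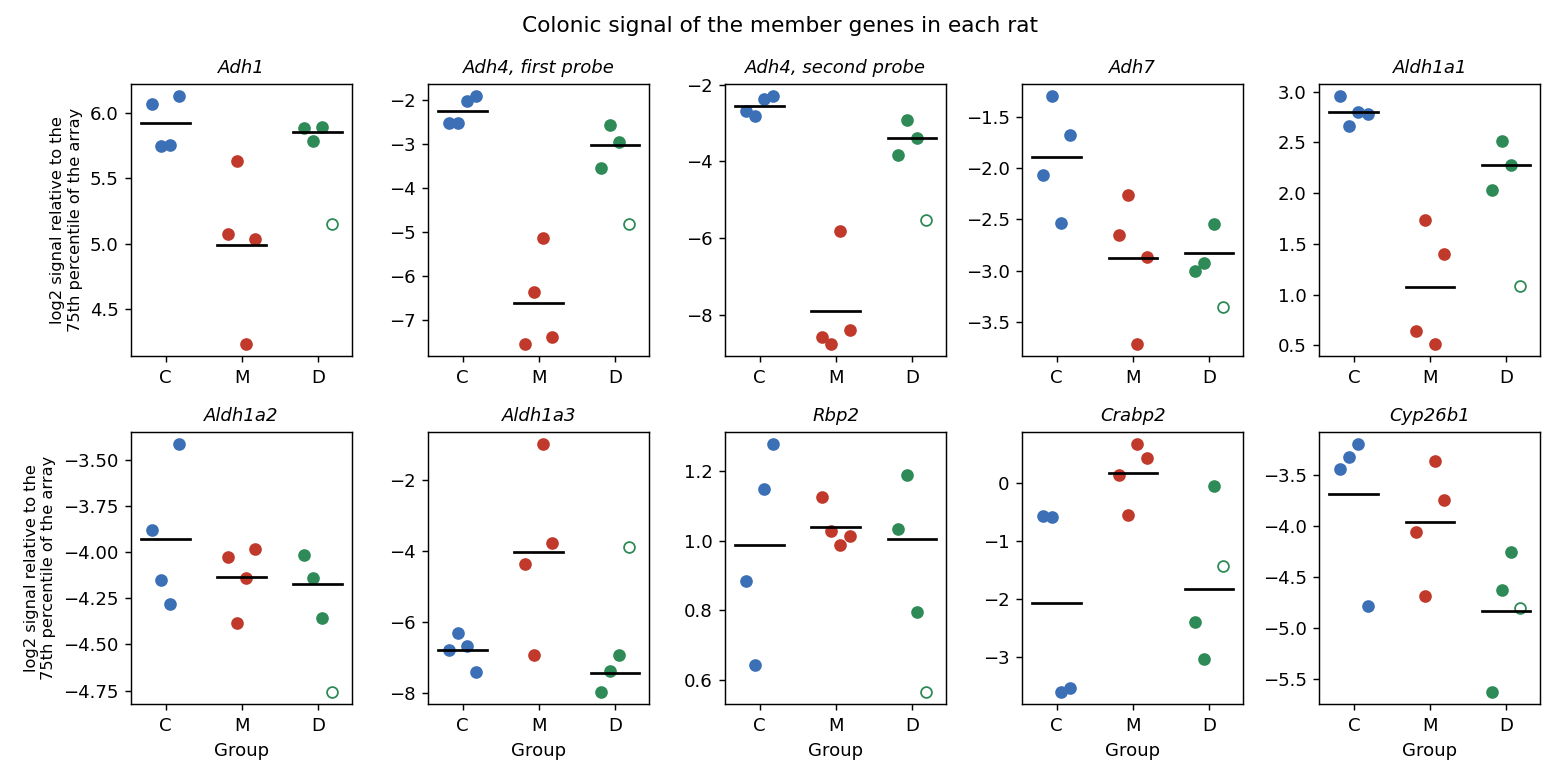
Signal of each member probe (vertical axis, log2 relative to the 75th percentile of the array, a separate scale in each panel) in Groups C, M and D. Each point is 1 rat, lines are means over 11 arrays, and the open point is D12, which was left out of the means. Adh4 was below -5 in all 4 rats of Group M with both probes, whereas Rbp2 lay between 0.57 and 1.28 in all 12 rats.

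Aldh1a1, a retinaldehyde dehydrogenase found in many epithelia, followed Adh4 with a smaller difference. Group C was tight, at 2.96, 2.66, 2.80 and 2.78. Group M stood at 0.65, 1.74, 0.52 and 1.40 and Group D at 2.03, 2.51 and 2.27, with 1.09 in D12. D9 to D11 lay between the other groups, with no overlap on either side, and D12 lay within Group M.

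As a percentage of the Group C mean, Aldh1a1 signal was 20.6% to 48.0% in Group M, 58.8% to 82.2% in D9 to D11 and 30.6% in D12. The difference was -1.72 ± 0.25 for M against C, a 3.30-fold lower mean. It was 1.20 ± 0.27 for D against M, a 2.29-fold higher mean, and -0.52 ± 0.27 for D against C. With D12 in the comparison, D against M came to 0.90 ± 0.33. The array also holds Aldh1a7, a close relative of Aldh1a1 in rodents, whose probe did not rise well above background on a single array.

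Aldh1a3, another retinaldehyde dehydrogenase, differed in the opposite direction. Group C stood at -6.77, -6.30, -6.66 and -7.40, and D9 to D11 at -7.96, -7.38 and -6.91. Group M spread from -6.93 in M6 over -4.37 in M5 and -3.77 in M8 to -0.98 in M7, and D12 stood at -3.87. The probe was well above background in 3 of 4 rats of Group C, in 3 of 4 of Group M (not in M6) and in none of D9 to D11. The mean of Group M was 2.77 ± 0.97 above that of Group C. Against D9 to D11 it was at least 9.45-fold higher, or 4.69-fold without M7, a bound that holds only for the scanner software's background subtraction. For this bound D9 was set to the lowest signal marked well above background on its array, and D10 and D11 kept their own signals. With D12 in the comparison, D against M came to -2.52 ± 1.14, and with normexp background correction on 11 arrays to -1.47. M6 lay within Group C, so the groups overlapped, and M7 alone contributed much of the mean, since without it the difference from Group C was 1.76.

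Aldh1a2, the third retinaldehyde dehydrogenase, which is typical of mesenchymal and mesothelial cells, did not separate the groups. It ranged from -4.28 to -3.42 in Group C, from -4.38 to -3.98 in Group M and from -4.36 to -4.02 in D9 to D11, with -4.76 in D12. The differences were -0.20 ± 0.18, -0.04 ± 0.20 and -0.24 ± 0.20 for M against C, D against M and D against C.

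Of the binding proteins, Rbp2, the cellular retinol-binding protein of absorptive enterocytes, varied least of all members. It ranged from 0.64 to 1.28 in Group C, from 0.99 to 1.12 in Group M and from 0.80 to 1.19 in D9 to D11, with 0.57 in D12. The differences were 0.05 ± 0.14, -0.03 ± 0.16 and 0.02 ± 0.16 in the same order.

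Crabp2, the protein that carries retinoic acid to its nuclear receptor, split Group C in pairs. C1 and C2 stood at -0.57 and -0.59, and C3 and C4 at -3.60 and -3.53. Group M stood at 0.13, -0.55, 0.67 and 0.42, and Group D at -2.39, -3.04 and -0.06, with -1.43 in D12. Group M lay above Group C in all rats, but M6 exceeded C1 by a margin of the second decimal, and D11 lay within Group M. The mean difference was 2.24 ± 0.85 for M against C, -2.00 ± 0.92 for D against M and 0.24 ± 0.92 for D against C, and the SD between rats was 1.73 in Group C and 1.57 in D9 to D11, against 0.53 in Group M.

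Cyp26b1, a hydroxylase that degrades retinoic acid, was -3.44, -3.33, -3.20 and -4.79 in Group C, -4.06, -4.69, -3.36 and -3.75 in Group M and -5.63, -4.63 and -4.26 in D9 to D11, with -4.81 in D12. C4 lay apart from the other rats of Group C, and all 3 groups overlapped. The differences were -0.28 ± 0.43 for M against C, -0.87 ± 0.46 for D against M and -1.15 ± 0.46 for D against C.

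The comparison of Groups M and C sets separated against normally handled rats, both given placebo, and array row cannot be told apart from separation in it. By limma with all 3 groups in 1 model, an adjusted p of at most 0.05 over all probes and at least a 2-fold difference, 50 of 30367 probes were called (0.165%; 0.0724% as lower in Group M), and 3 of 10 member probes were among them, both Adh4 probes and Aldh1a1, all lower. By the criterion of the methods (a 2-fold change with p values of analysis of variance and Tukey test up to 0.05, not adjusted over probes) the background was 2.31% and the same 3 member probes passed. With all 12 arrays 10 probes were called (0.0329%), among them the 2 Adh4 probes. Groups M and C did not overlap, with M lower, for 5.04% of all probes and 4 member probes (Adh1, both of Adh4 and Aldh1a1), and with M higher for 4.18% and 1 member probe (Crabp2). Nothing is read from these shares, because the members were picked on this contrast. The median difference over the 9 genes was -0.28, against -0.01 over all probes.

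The number of member probes called depended on single rats. It was 0 without C1 or without C3, 1 without C4, 2 when any of C2, M5, M7, M8, D9, D10 and D11 was left out, and 6 without M6, when Adh1, Adh7 and Aldh1a3 were also called and 5.84% of all probes passed. In the other fits 0.0165% to 0.217% of all probes were called and the members among them, where there were any, were Adh4 alone, so Aldh1a1 lost its call when any rat but M6 was left out. Across these fits the difference of Adh4 stayed between -4.84 and -4.04 and that of Aldh1a1 between -1.94 and -1.53.

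The comparison of Groups D and M asks whether separated rats given VSL#3 differed from separated rats given placebo. Here 39 probes were called (0.128%; 0.0659% as higher in Group D), of which 2 were members, the pair of Adh4 probes. By the criterion of the methods 2.66% of probes passed and 4 member probes with them, Adh4 (both) and Aldh1a1 as higher and Aldh1a3 as lower in Group D. Group D lay above Group M without overlap for 8.46% of probes and 4 members (Adh1, both of Adh4 and Aldh1a1), and with D12 for 2.52% and the 2 Adh4 probes. With all 12 arrays 4 probes were called (0.0132%), none of them a member, although Adh4 still differed by 3.13 ± 0.56. Leaving out C2 or M7 kept the count of 2, leaving out M6 gave 5 with 6.51% of all probes called, and leaving out any other of the 11 rats gave 0.

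Between Groups D and C 2 probes were called (0.00659%), with no member among them, and by the criterion of the methods 0.369% of probes passed, also without a member. An unadjusted limma p up to 0.05 was reached by 5.97% of probes and by 2 member probes, Adh7 and Cyp26b1. Group D lay below Group C without overlap for 4.02% of probes and 4 member probes (both of Adh4, Adh7 and Aldh1a1), and the same 4 lay below with D12 as well, against a background of 2.52%. These 3 comparisons share groups and are therefore not independent of each other.

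**Figure D2:**
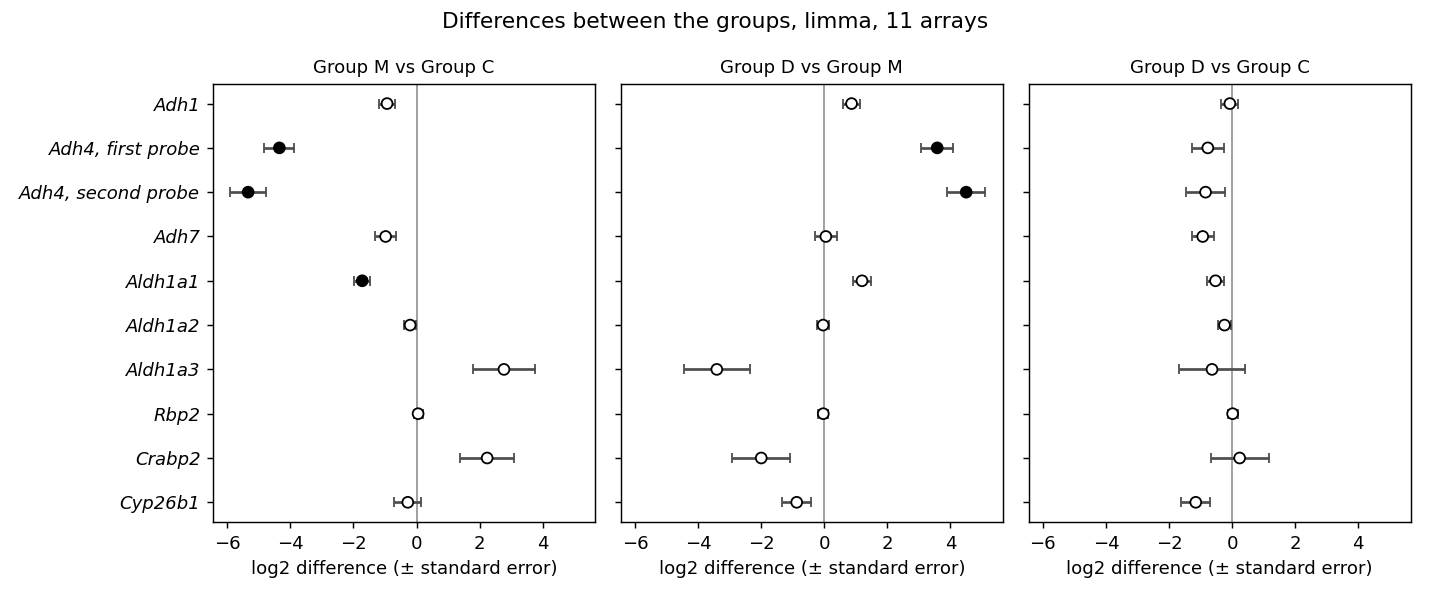
Differences between the groups for the 10 member probes (horizontal axis, log2 difference of means, first group minus second group, with its standard error from limma over 11 arrays). Filled points passed the call rule of an adjusted p of at most 0.05 over all probes and a 2-fold difference. The Adh4 probes lie at -4.35 and -5.34 for M against C and at 3.58 and 4.50 for D against M.

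The rest of the retinoid pathway was described from lists of textbook roles. Of 70 listed genes 64 were measured, and 52 of these were well above background on every array. None of the 64 was called by limma in any comparison. Before adjustment, 17, 23 and 6 of the 64 passed 0.05 for M against C, D against M and D against C. The shares of all probes were 22.7%, 21.6% and 5.97%, in each comparison smaller than the share among the 64. Nothing is read from this, because the lists were chosen with earlier results known. By the criterion of the methods 1 gene was lower and 1 higher in Group M than in Group C, against 0.935% and 1.37% of all probes. In Group D 3 were lower than in Group M, against 1.57% of all probes. None differed between Groups D and C, against 0.369%. Nothing is read from these counts either. The median difference over the 64 genes was -0.04, 0.02 and -0.15, against -0.01, 0.01 and -0.01 over all probes. Without M6, 6 genes were called for M against C (among them Fabp5, Rdh10 and Cyp2s1 as higher, Aldh1b1 and Aldh1l1 as lower), with 5.84% of all probes. In the same fit 7 were called for D against M (all lower, among them Lrat, Fabp5, Akr1b8, Aldh3a1, Cyp2s1 and Itga4), with 6.51% of all probes. Without any other single rat none was called.

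Among other aldehyde dehydrogenases, 16 genes were measured and none was called. Aldh1b1, a mitochondrial enzyme that accepts retinal and acetaldehyde, was -1.74, -2.60, -2.04 and -2.60 in Group C, -3.27, -3.39, -4.58 and -3.66 in Group M, -3.16, -3.46 and -2.94 in D9 to D11 and -4.08 in D12. All rats of Groups M and D lay below Group C. The difference between Groups M and C was -1.48 ± 0.30 (limma, adjusted p = 0.0867), which met the criterion of the methods. Aldh1l1, a folate enzyme, differed by -0.80 ± 0.26 and Aldh6a1, which degrades valine, by -0.59 ± 0.20 (adjusted p = 0.130 and 0.139 by limma).

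Of the retinoid receptors 6 were measured and none was called. Rxrg, a retinoid X receptor that pairs with other nuclear receptors, was -2.80, -3.01, -2.92 and -2.94 in Group C, -3.52, -3.69, -4.13 and -3.58 in Group M, and -3.21, -3.27 and -2.87 in D9 to D11, with -3.81 in D12. Group M lay below Group C in all rats. The difference was -0.81 ± 0.15 (limma, adjusted p = 0.0724). Rxrb differed by -0.63 ± 0.16 (adjusted p = 0.0998 by limma), also without overlap, and Rxra by -0.21.

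In the group of retinoid-binding proteins, Fabp5, which carries fatty acids and retinoic acid, was 1.15, 1.96, 0.75 and 1.03 in Group C, 2.75, 1.31, 3.03 and 2.59 in Group M, 0.85, 0.74 and 0.84 in D9 to D11 and 2.47 in D12. M6 lay within Group C. The difference was 1.20 ± 0.36 for M against C (limma, adjusted p = 0.118) and -1.61 ± 0.39 for D against M (limma, adjusted p = 0.0900), and both met the criterion of the methods. Rbp7, a retinol-binding protein, differed by 0.37 between Groups M and C and was not called.

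Among 15 retinol dehydrogenases and retinal reductases none was called. Akr1b8, an aldo-keto reductase that reduces retinal, stood at 4.03 in M7 and between -0.31 and 1.17 in the other rats of Group M, and the difference from Group C was 1.31. Rdh10, which oxidises retinol to retinal, differed by 0.86 ± 0.31 (limma, adjusted p = 0.146), with every rat of Group M above Group C, and Dhrs3, which reduces retinal back to retinol, by -0.65. Cyp2s1 was the only one of 3 other retinoic acid hydroxylases to exceed background clearly in all rats, and differed by 1.34 ± 0.49 (limma, adjusted p = 0.151).

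Of the 11 measured genes for retinol uptake, storage and carotenoid cleavage none was called. Those with the widest differences between Groups M and C were Stra6l, a retinol-binding-protein receptor, at -0.73, Lpl, the lipoprotein lipase, at -0.59, and Bco2, which cleaves carotenoids, at -0.47. Among genes known to respond to retinoic acid none was called either, and wide differences belonged to Itga4, the alpha4 integrin of gut-homing lymphocytes, at 0.70, and to Dhrs3, given above.

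**Figure D3:**
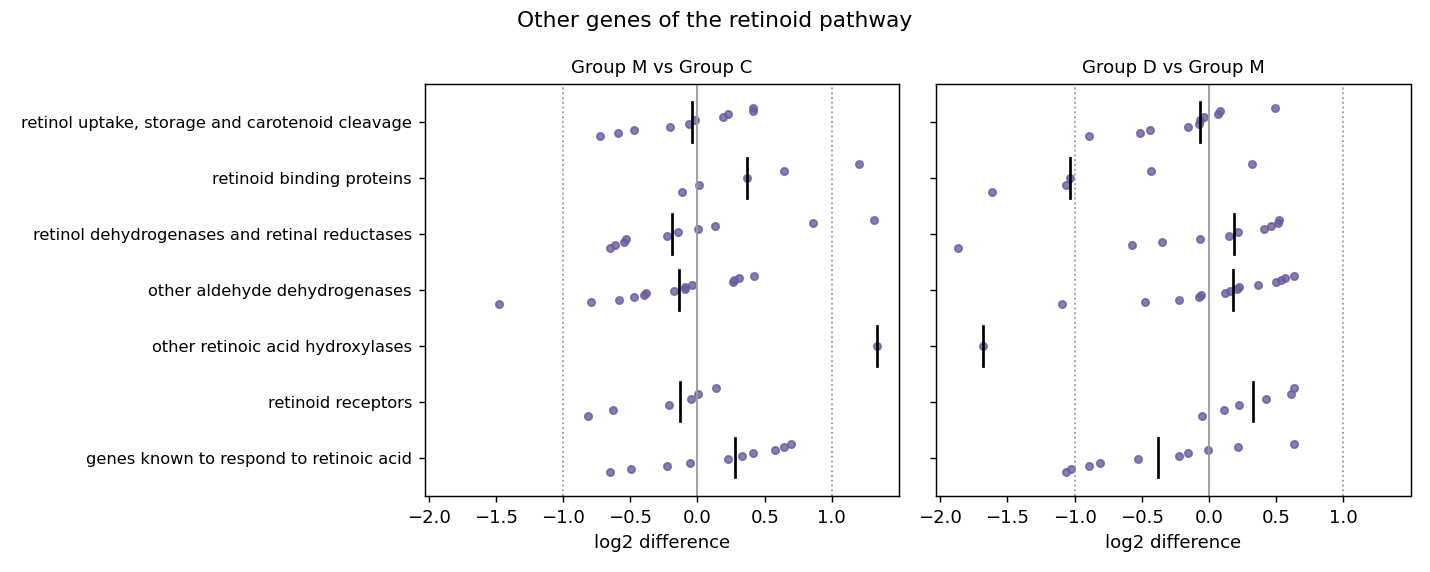
Log2 differences of the other retinoid pathway genes for M against C (left) and D against M (right), 1 point per gene well above background on all 12 arrays, by list, with the median of each list as a black line and dotted lines at a 2-fold difference. No point passed the limma call rule, and Aldh1b1 at -1.48 was the lowest for M against C.

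Some markers of other cell types moved with these values, and their part in the results was not tested. The mean log2 level of the 6 measured of 7 leukocyte markers (5 well above background on every array, and each of the 6 on at least 1) was -1.06, -1.62 and -1.39 in M5, M7 and M8, -1.26 in C2 and -0.91 in D12, and between -3.24 and -2.46 in the other 7 rats, M6 among them at -2.91. Their summed signal was 1.71 to 6.61 in Group C, 1.70 to 8.30 in Group M, 1.40 to 1.99 in D9 to D11 and 12.3 in D12. Ptprc, Cd3e, Cd79b and Cd68 were higher in each of C2, M5, M7, M8 and D12 than in any other rat, and Csf1r overlapped. Itgae, well above background on 10 of 12 arrays, was lower in those rats (-7.84 to -6.41) than in the rest (-6.26 to -5.20). Fabp5, Cyp2s1 and Itga4 had their 5 highest values in these same 5 rats. None of the leukocyte markers was called between Groups M and C.

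M6, whose mean leukocyte and colonocyte marker levels were near those of C1 and C3, had Adh4 at 5.81% and Aldh1a1 at 48.0% of the Group C mean. In C2, with a high mean of the leukocyte markers, these genes were at 82.1% and 90.7%. In D12 they were at 16.9% and 30.6%, the lowest of Group D, and Aldh1a1 in M6 was the highest of Group M. Adh1 stood at 81.5% in M6 and 88.2% in C2, against 30.9% to 55.4% in M5, M7 and M8 and 58.5% in D12. Aldh1a3 was high in M5, M7, M8 and D12 and not in M6 or C2. The part of tissue make-up in these values was not tested. The 4 measured of 5 mesothelium markers (2 well above background on every array, each on at least 1) summed to 1.32 to 1.71 in Group C, 0.62 to 1.14 in Group M, 0.49 to 1.24 in D9 to D11 and 0.49 in D12, so that Groups M and C did not overlap. For Msln and Upk1b all 4 rats of Group M lay below Group C, and no marker of this list was called. The summed signal of the 13 colonocyte markers overlapped between the groups. It was 271 to 352 in Group C, 273 to 350 in Group M, 322 to 395 in D9 to D11 and 247 in D12. Their mean log2 level was 3.00 to 3.32 in C2, M5, M7, M8 and D12 and 3.61 to 4.11 in the other 7 rats. Vil1, Cdx2, Car1, Car4, Aqp8 and Lgals4 were lower in each of C2, M5, M7, M8 and D12 than in any other rat. Krt8, Krt19, Krt20, Epcam, Cdx1, Cdh1 and Slc26a3 overlapped, and Krt8, Krt19 and Epcam were highest of all in M7. Without C2, M6 and D12, 5 member probes were called for M against C (Adh1, both of Adh4, Aldh1a1 and Aldh1a3) among 8.67% of all probes, and the same number for D against M among 7.38%.

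**Figure D4:**
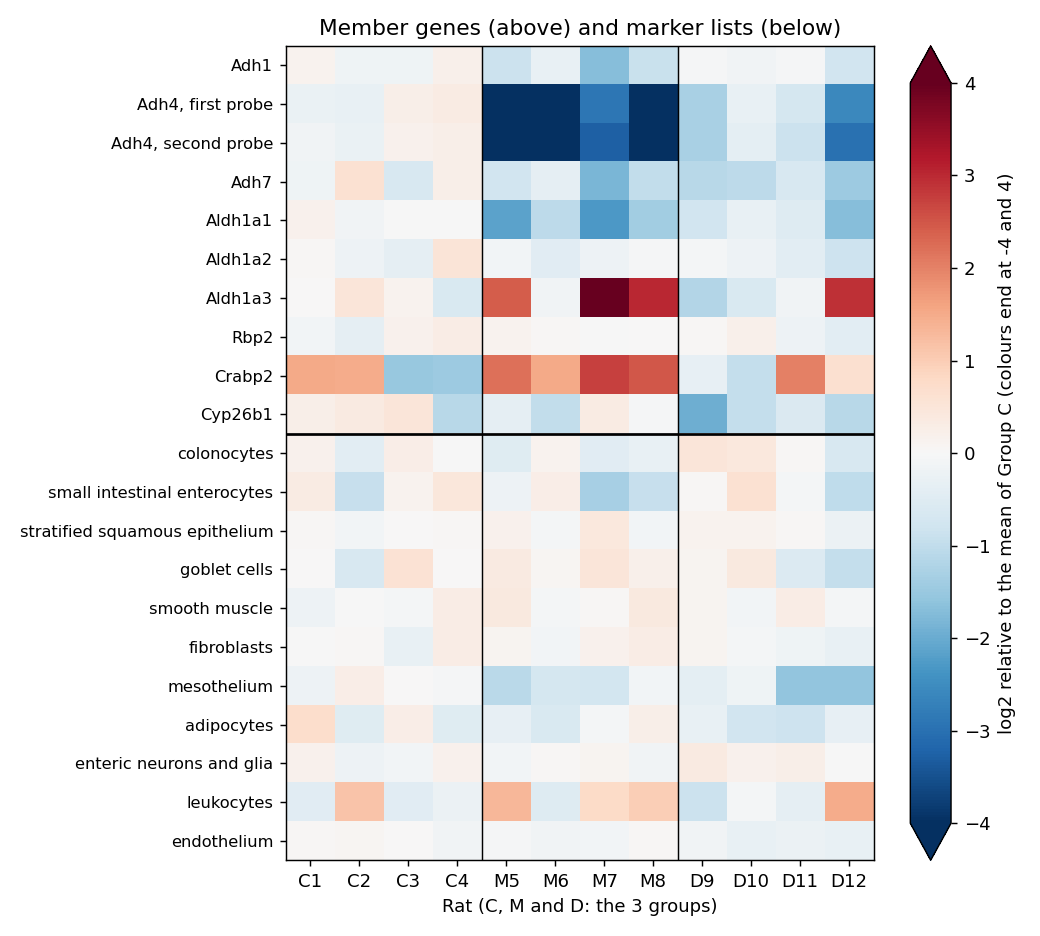
Signal of the member probes (above the line) and mean signal of the marker lists (below it) in each of the 12 rats, as log2 difference from the mean of Group C, with colours that end at -4 and 4. Adh4 is low in all 4 rats of Group M, and lower in D12 than in the other rats of Group D. The leukocyte list is high in C2, M5, M7, M8 and D12 and not in M6.

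The probes most like Aldh1a1 over all 12 arrays, among 12926 named probes that exceeded background clearly in all rats, were those of Dio1 (Pearson r = 0.977), Plag1 (r = 0.970) and Prss53 (r = 0.951). For Crabp2, the member with the widest range among those measured well in all rats, they were Rtn4rl1 (r = 0.890), Cndp1 (r = 0.882) and Trim47 (r = 0.877). These values describe likeness over the same 12 arrays, which include the difference between the groups, and carry no test.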

How the data were processed

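Colonic RNA of 12 rats was hybridised to 1-colour (Cy3) Agilent arrays of 62976 spots. Per the file headers, the deposited intensity of each spot was made by Feature Extraction 10.5.1.1, which subtracts the background and corrects trends across the array, with no normalization between arrays. The authors' matrix of log2 values for 30367 probes has 1 distribution in all columns (column medians 7.283 to 7.284, so quantile normalized and not centred by gene), each of the 12 columns followed its own array most closely, and it served as an alternative.

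Here log2 intensity was shifted by the 75th percentile of the array (1434 to 1953 in intensity units). Control spots and outlier spots (277 to 521 per array) were left out, no spot was saturated, and spots of a probe were averaged. On these arrays 75.5% to 77.5% of spots were well above background. The median coefficient of variation between replicate spots lay at 3.56% to 6.58% per array, and the number of arrays limits the precision. Where no array of a group exceeded background clearly, the fold is a lower bound within this processing. It was taken against the higher of the probe's own signal and the lowest signal marked well above background on each array. The comparisons used limma 3.58.1 in R 4.3.3 (lmFit, eBayes, 3 groups in 1 model, 11 arrays). A call needed an adjusted p of at most 0.05 (Benjamini-Hochberg over all probes) and a 2-fold difference. The fit was tested beforehand on simulated data with independent noise for each probe. That test does not cover differences between rats that many probes share. Figures were drawn with matplotlib. Pathway genes stand for the probe with the highest mean signal, and the text names, besides the members, any called gene and in each list the 3 genes with the widest difference between Groups M and C that were well above background in all rats. Aldh1a7 was named as a relative of a member, and 1 gene that the rule names is not reported here. Genes of the lists named Isx, Rdh5, Rarb and Hoxb5 were not matched on the array, and Bcmo1 and Rdh16 led to the probes of Bco1 and Rdh2 and were counted once with them. The members and all lists were chosen with earlier results of these data known.

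Nothing in the sources says that the rats of a group came from separate litters, so the errors measure the spread between these rats. Sequences before gene starts are from RefSeq (GRCr8). The labels give the VSL#3 dose printed here, and the paper's methods give a slightly lower one. No reason for leaving out D12 was given in the sources used here.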

Additional observations from a re-analysis of the deposited data

Results flagged for a closer look

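Within groups of 4 rats, 3 of 30 groups (10 probes in 3 groups) held 1 rat far from the other three, by the ratio of its gap to the whole range of the group, and chance alone gives about 1 in 20. For Adh1 it was D12 in Group D, with a ratio of 0.864 at a signal of 5.15, the rat that the methods left out. For the second Adh4 probe it was M7 in Group M, with a ratio of 0.876 at -5.83, the only array of that group on which this probe was well above background. For Cyp26b1 it was C4 in Group C, with a ratio of 0.846 at -4.79.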

How the results depend on the processing

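Another scaling (quantile or median shift), the authors' matrix, outlier spots kept, a filter on dim probes and the adjusted p alone left every count of called probes within 1.5 times, and no setting called a member or pathway gene between Groups D and C. With all 12 arrays 0 member probes were called for D against M, also without M6. Normexp background correction called 1 pathway gene for M against C. Array weights called 5 pathway genes for M against C, and 4 member probes and 8 pathway genes for D against M, with 6.69% and 6.75% of all probes. The criterion of the methods called 2 pathway genes for M against C, and 4 member probes and 3 pathway genes for D against M, with 2.31% and 2.66% of all probes. Leaving out each rat in turn gave 0 to 6 member probes and 0 to 6 pathway genes for M against C, and 0 to 5 and 0 to 7 for D against M. Without C2, M6 and D12, an alternative chosen after seeing the data like that of all 12 arrays without M6, 5 and 8 were called for M against C, and 5 and 6 for D against M. The cause of these changes was not tested. The replicate numbers of the titles did not pair the rats, since same-numbered rats correlated between -0.72 and 0.58. Only 3 of 12 rats were closest to a rat of their own number. The replicate block called 0 member probes in M against C and 0 in D against M.

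Of 618 recomputed differences of the members, 615 moved by less than the SD between rats and 3 by more. All 3 came with normexp, namely Adh4 at -2.32 for M against C and 1.71 for D against M, and Aldh1a3 at -1.47 for D against M. Many of the 618 could not move, so their number is no measure of robustness. A difference between 2 groups stays the same when a rat of the third group is left out or added. It also stays the same under the filter on dim probes and, for genes with 1 probe, under averaging over probes. A change of sign occurred in 27 of the 618, none of them for Adh1, Adh4 or Aldh1a1. Signals close to background limit the folds of Adh4 in Group M and of Aldh1a3 in all groups.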
